A study of Homo sapiens with 8 samples.

Results

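The Ikaros family is a set of 5 zinc finger transcription factor genes, and their loci were examined in peak lists from chromatin immunoprecipitation with sequencing (ChIP-seq). The members were the peaks that overlapped the gene body, or 20 kb on either side of it, of IKZF1, IKZF2, IKZF3, IKZF4 or IKZF5 in the hg38 build. By this rule 139 of the 189160 peaks in 4 lists were members. The cells were OPM-2, an established line of multiple myeloma, a cancer of plasma cells, and the study concerns myeloma with the t(4;14) translocation. They were exposed for 72 h to 1 of 4 conditions, each with 1 ChIP library. The ATRA+POM cells received 2 compounds together, all-trans retinoic acid (ATRA) at 1 µM, which activates retinoic acid receptors, and the immunomodulatory drug pomalidomide (POM), also at 1 µM. The POM cells received 1 µM pomalidomide alone, the ATRA cells 1 µM retinoic acid alone, and the DMSO cells the vehicle. The antibody is not given in the sources used here, so a peak marks enrichment of an unnamed target. All libraries came from a single cell line, and no list has a replicate. Differences between lists were therefore not tested, and every comparison sets the values of 2 libraries side by side.

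Ikaros family proteins bind DNA through zinc fingers near one end and pair with each other through zinc fingers near the other end. Ikaros (IKZF1) and Aiolos (IKZF3) act in lymphocytes and plasma cells, Helios (IKZF2) and Eos (IKZF4) are best known from regulatory T cells, and Pegasus (IKZF5) is the most divergent relative. Pomalidomide binds cereblon, the substrate receptor of a ubiquitin ligase, which then marks Ikaros and Aiolos for destruction. This acts on the proteins, whereas the peaks describe the chromatin of their genes.

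The lists held 47193 peaks for ATRA+POM, 54279 for POM, 36742 for the library labelled ATRA and 50946 for DMSO. Each peak carries the authors' fold enrichment, the ratio of reads at its summit to a local background. Whether that background comes from the ChIP library or from its input is not given here. The fold is not scaled between libraries. Reads at the summit were recovered from the fold and the p-value of each peak. Their median per peak was 65 in ATRA+POM, 72 in POM, 23 in the ATRA-labelled library and 78 in DMSO. The depth relative to DMSO was 0.900 for ATRA+POM, 0.925 for POM and 0.132 for the ATRA-labelled library, which stands apart. Of its 36742 peaks, 120 lacked a DMSO counterpart, and no peak was called in it at CYP26A1 or DHRS3, which encode retinoid-metabolizing enzymes known to be induced by retinoic acid. DHRS3 had no peak in DMSO either, and 14.6-fold in ATRA+POM and 11.7-fold in POM. CYP26B1, of the same group, had no peak in any list. Peaks at these enzymes and at the markers below were not counted in the 20 kb windows. IRF4 had 7 DMSO peaks in this count and 8 in the 20 kb window, so peaks farther out can be missed. At CYP26A1 the ATRA+POM list held 1 peak of 44.3-fold, the POM list 2 peaks of up to 5.41-fold and the DMSO list 1 peak of 4.16-fold. The 6 plasma cell markers and the t(4;14) genes NSD2 and FGFR3 had peaks in all 4 lists. Among markers of B cells, T cells, monocytes and erythroid cells, MS4A1, CD3D, CD14 and LYZ had no peak in any list. CD2 and HBB had peaks in all 4 lists, PAX5 in DMSO, CD3E in POM, and CSF1R in ATRA+POM and POM.

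Promoter sequences show where the peaks lie against the annotated starts of the genes. RefSeq lists 10 starts for IKZF1, IKZF2, IKZF4 and IKZF5 in GRCh38.p14, each with 300 bases around it. The 4 sequences below are those whose coverage by peaks carries the results at IKZF1, IKZF2 and IKZF4, on the strand of the gene and 5′ to 3′. Capitals mark a match to TGGGAA, the core of the Ikaros binding site, or to AGGTCA, the core hexamer of nuclear receptor sites, on either strand.
IKZF1 first start, chr7:50304466-50304765, plus strand: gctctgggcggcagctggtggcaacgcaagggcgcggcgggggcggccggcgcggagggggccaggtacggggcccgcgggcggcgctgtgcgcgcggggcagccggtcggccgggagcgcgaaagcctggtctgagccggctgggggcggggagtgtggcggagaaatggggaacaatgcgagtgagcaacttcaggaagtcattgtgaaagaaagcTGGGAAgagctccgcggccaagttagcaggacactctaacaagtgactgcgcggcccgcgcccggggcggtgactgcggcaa
IKZF2 outer start, chr2:213152407-213152706, minus strand: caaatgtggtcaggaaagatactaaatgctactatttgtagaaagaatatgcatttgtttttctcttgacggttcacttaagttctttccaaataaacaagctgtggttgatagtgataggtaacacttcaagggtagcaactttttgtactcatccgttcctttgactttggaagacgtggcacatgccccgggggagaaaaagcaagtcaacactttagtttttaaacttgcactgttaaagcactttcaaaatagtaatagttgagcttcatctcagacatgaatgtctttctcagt
IKZF2 inner start, chr2:213150388-213150687, minus strand: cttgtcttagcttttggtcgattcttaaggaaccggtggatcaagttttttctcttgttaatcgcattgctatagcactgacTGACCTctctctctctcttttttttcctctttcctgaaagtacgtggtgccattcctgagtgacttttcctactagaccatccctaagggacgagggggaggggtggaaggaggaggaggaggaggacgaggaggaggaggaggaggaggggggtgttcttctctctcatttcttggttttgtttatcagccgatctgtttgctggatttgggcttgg
IKZF4 outer start, chr12:56007254-56007553, plus strand: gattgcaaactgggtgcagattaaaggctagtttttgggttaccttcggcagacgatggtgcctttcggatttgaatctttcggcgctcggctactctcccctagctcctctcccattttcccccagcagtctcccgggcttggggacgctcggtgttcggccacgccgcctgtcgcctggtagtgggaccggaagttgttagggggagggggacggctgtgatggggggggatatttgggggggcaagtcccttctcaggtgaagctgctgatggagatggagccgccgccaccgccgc

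The bases of these promoters that peaks covered differed between the lists. At the first start of IKZF1, peaks covered 90 of 300 bases in ATRA+POM, 235 in POM, 20 in the ATRA-labelled list and all 300 in DMSO. At the outer start of IKZF2 they covered all 300 bases in every list. At its inner start they covered 34 bases in ATRA+POM, 300 in POM, 0 in the ATRA-labelled list and 300 in DMSO. The outer start of IKZF4 had 31 bases covered in ATRA+POM, 72 in POM, 41 in the ATRA-labelled list and 163 in DMSO. Full coverage in every list was thus seen at the outer start of IKZF2, and the other printed promoters lay at or beyond a peak's edge in at least 1 list. The sequences differ in composition, with 71.0% G or C at the first start of IKZF1 and 37.3% at the outer start of IKZF2.

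TGGGAA was found in 1 of the 10 promoters, at the first start of IKZF1 from 32 bases before the start, and in 24.0% of 35116 RefSeq promoters of the same length. AGGTCA was found in 3 of the 10, against 13.8% of all promoters. These were the inner start of IKZF2 and 2 overlapping promoters of IKZF4 that share a single match and held no peak in any list. Not found in any of the 10 were the ETS-IRF composite motif (2.82% of all promoters), the interferon response element (3.57%), or TGACTCA, the AP-1 site (4.95%). The E-box CANNTG was in 6 of the 10 (68.7% of all), GGGCGG in 3 (45.0%), CCAAT in 1 (34.6%) and TATAAA in 1 (11.5%). All motifs were searched on both strands, the ETS-IRF and interferon motifs can overlap, and a match is letters only.

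Peaks were called at all 5 genes in all 4 lists. Most genes had a peak in such a window. Of all 19974 protein-coding genes, 13566 had one in ATRA+POM, 14711 in POM, 12535 in the ATRA-labelled list and 14505 in DMSO. The family held 37 peaks in ATRA+POM, 37 in POM, 26 in the ATRA-labelled list and 39 in DMSO. IKZF3 held the most, with 16, 17, 12 and 14 peaks in the same order of lists, and IKZF1 and IKZF2 held between 2 and 4 peaks in each list. Over all 19974 protein-coding genes the median was 2 peaks per locus in each list. Merging peaks that share a base gave 39 regions, of which 26 lay in a gene body. Another 9 lay in a flank within 1000 bp of a neighbouring gene and 4 elsewhere in a flank. Of the 39, 17 (43.6%) were called in all 4 lists, against 28.8% of the 67328 regions of the whole series. A further 5 (12.8%, against 8.62% of all) were called in all lists but the ATRA-labelled one, so that 22 were shared once it was left out. Called in 1 list alone were 1 region in ATRA+POM (2.56%, against 5.23% of all), 5 in POM (12.8%, against 14.3%) and 4 in DMSO (10.3%, against 16.3%), and none in the ATRA-labelled list.

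**Figure D1:**
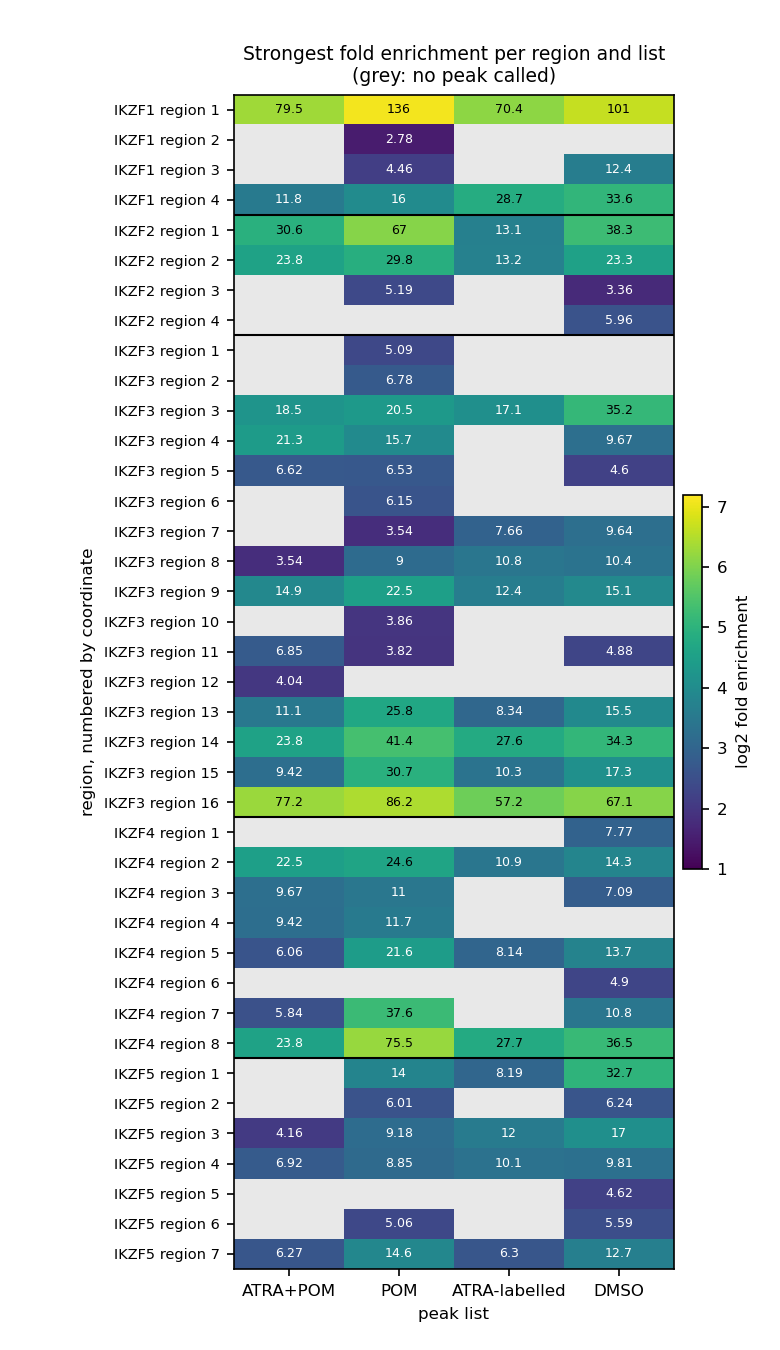
Fold enrichment (log2 colour scale) of each of the 39 merged regions at the 5 loci, 1 row per region in order of position within its gene, with the lists in columns and grey cells where no peak was called. The first region of IKZF1 and the last of IKZF3 are the strongest in every list, and the ATRA-labelled column has the most grey cells.

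Among the 17 regions called in every list, the fold was highest in ATRA+POM at 0, in POM at 12, in the ATRA-labelled list at 2 and in DMSO at 3. It was lowest in ATRA+POM at 9 and in the ATRA-labelled list at 8. Summit reads scaled to the DMSO depth gave another tally. They were highest in ATRA+POM at 0, in POM at 9, in the ATRA-labelled library at 7 and in DMSO at 1. They were lowest in ATRA+POM at 15, in the ATRA-labelled library at 1 and in DMSO at 1. The same tallies were not made over all regions, so they are not shown to be particular to these loci. ATRA+POM was lower across the series too. The log2 of its fold over that of POM had a median of -0.66 over all shared regions and -0.59 at members. Over DMSO these medians were -0.57 and -0.49. On scaled reads they were -0.71 and -0.95 over POM, and -0.70 and -0.37 over DMSO. For POM over DMSO the fold gave 0.08 and 0.36. The summits of a region in the different lists lay a median of 125 bp apart (range 7 to 574 bp). They lay within 50 bp at 5 regions and more than 500 bp apart at 2.

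IKZF1, the gene of Ikaros, lies at chr7:50303455-50405101 with no other protein-coding gene in its window, and held its enrichment toward the lower-coordinate end of its 102 kb body. The strongest region, chr7:50304309-50313492, lay near the lower-coordinate end of the gene. Its fold was 79.5 in ATRA+POM, 136 in POM, 70.4 in the ATRA-labelled library and 101 in DMSO. The reads at its summit were 775 in ATRA+POM, 1431 in POM, 164 in the ATRA-labelled library and 1110 in DMSO. Scaled to the DMSO depth they came to 861 in ATRA+POM, 1546 in POM, 1245 in the ATRA-labelled library and 1110 in DMSO. POM was the highest and ATRA+POM the lowest on the scaled counts, whereas on the fold the ATRA-labelled library was the lowest. Its summits lay within 38 bp of each other, 1838 to 1876 bp downstream of the first start printed above. The main peak was 8149 bp wide in ATRA+POM, 8962 bp in POM, 8701 bp in the ATRA-labelled list and 9134 bp in DMSO. By width it ranked 46th in the ATRA+POM list, 71st in POM, 23rd in the ATRA-labelled list and 66th in DMSO.

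The region farther inside IKZF1, chr7:50337180-50339490, was ordered differently. Its fold was 11.8 in ATRA+POM, 16.01 in POM, 28.7 in the ATRA-labelled library and 33.6 in DMSO, on 101, 179, 86 and 484 summit reads. Both libraries with pomalidomide were thus below the other two. Relative to the strongest region of the same list, it stood at 14.8% in ATRA+POM, 11.8% in POM, 40.8% in the ATRA-labelled library and 33.3% in DMSO. This ratio within a library needs no scaling between libraries. It can still vary with depth, because the caller is assumed to add 1 to reads and background. The summits compared at the inner region lay up to 430 bp apart. A smaller region, chr7:50331366-50332308, had a fold of 4.46 in POM and 12.4 in DMSO and no peak in the other lists. Its 105 DMSO reads correspond to 94.5 reads at the depth of ATRA+POM, whose 10th percentile of summit reads per peak was 25, and to 13.8 at the depth of the ATRA-labelled library. The remaining region, at chr7:50313577-50313778, was a POM peak of 2.78-fold beside the strongest region. The last 65.6 kb of the gene, 64.5% of the body, held no peak in any list.

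IKZF3, the gene of Aiolos, lies at chr17:39757715-39864312 with GRB7 on its lower-coordinate side and ZPBP2 on the other, and had peaks along the whole of its 107 kb body. It held 16 regions, and its longest stretch without a peak was 22.1 kb. The strongest region, chr17:39860219-39867965, spans the higher-coordinate end of the gene and reaches within 1000 bp of ZPBP2. Its fold was 77.2 in ATRA+POM, 86.2 in POM, 57.2 in the ATRA-labelled library and 67.1 in DMSO. Its summit reads were 796 in ATRA+POM, 1576 in POM, 169 in the ATRA-labelled library and 1050 in DMSO. POM was the highest on both measures, and the summits of all 4 lists lay within 7 bp. DMSO held a single peak of 7673 bp there, POM and the ATRA-labelled list each 2 peaks, and ATRA+POM 3. No start of IKZF3 was among the promoters used, so which end of the gene holds its start is not given here. The gaps between those peaks fell at the higher-coordinate end of the gene, over 162 bp in ATRA+POM, 154 bp in POM and 243 bp in the ATRA-labelled list. ATRA+POM had a further gap of 134 bp beyond it.

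Inside IKZF3, chr17:39842449-39844598 had a fold of 23.8 in ATRA+POM, 41.4 in POM, 27.6 in the ATRA-labelled library and 34.3 in DMSO. At chr17:39851395-39853584 the fold was 9.42 in ATRA+POM, 30.7 in POM, 10.3 in the ATRA-labelled library and 17.3 in DMSO. At chr17:39818069-39821144 it was 11.1 in ATRA+POM, 25.8 in POM, 8.34 in the ATRA-labelled library and 15.5 in DMSO. On the fold, POM was the highest of the 4 at each of these 3 regions, and ATRA+POM was below DMSO at each. On reads scaled to the DMSO depth, the first of them had 278 in ATRA+POM, 544 in POM, 600 in the ATRA-labelled library and 522 in DMSO, so that the ATRA-labelled library was the highest there. At the lower-coordinate end of the gene, chr17:39755170-39758816 had a fold of 21.3 in ATRA+POM, 15.7 in POM and 9.67 in DMSO, and no peak in the ATRA-labelled list. ATRA+POM was the highest on the fold, whereas the reads scaled to the DMSO depth were 97.8 in ATRA+POM, 129 in POM and 40 in DMSO, with POM the highest. The summits compared there lay up to 1865 bp apart. The next region outwards, chr17:39753310-39754301, had a fold of 18.5 in ATRA+POM, 20.5 in POM, 17.1 in the ATRA-labelled library and 35.2 in DMSO. At chr17:39793846-39794438 no peak was called in ATRA+POM, and the fold was 3.54 in POM, 7.66 in the ATRA-labelled library and 9.64 in DMSO. The DMSO peak there had 138 reads, which correspond to 124 at the depth of ATRA+POM. The other 9 regions had folds between 3.54 and 22.5. They include 4 called in POM alone, of which 2 lie at GRB7, and 1 called in ATRA+POM alone at 4.04-fold.

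**Figure D2:**
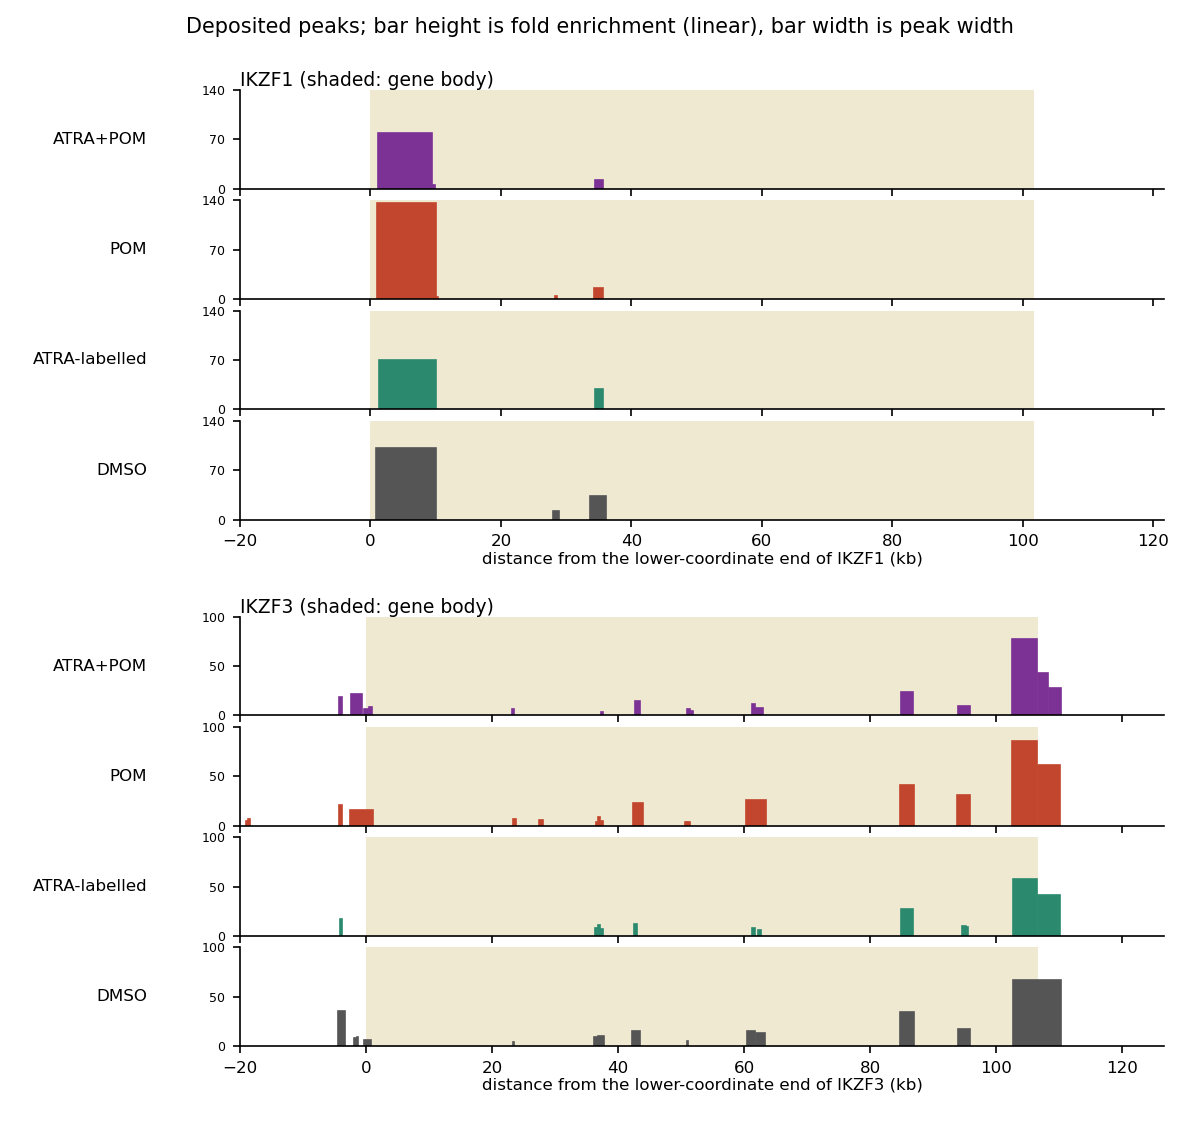
Deposited peaks along IKZF1 and IKZF3 in each list, with distance from the lower-coordinate end of the gene in kb on the horizontal axis and fold enrichment (linear) on the vertical axis; shading marks the gene body. Peaks of IKZF1 sit toward its lower-coordinate end, with those farther inside lower in ATRA+POM and POM, whereas IKZF3 has peaks from end to end.

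IKZF2, the gene of Helios, lies at chr2:212999698-213152456 and was enriched within its body at the starts only. The first 150 kb from its lower-coordinate end, 98.2% of the body, held no peak in any list. Over the outer start, chr2:213151932-213153305 had a fold of 23.8 in ATRA+POM, 29.8 in POM, 13.2 in the ATRA-labelled library and 23.3 in DMSO. The summits there lay 45 to 60 bp upstream of the start printed above. Next to it, chr2:213149718-213151607 had a fold of 30.6 in ATRA+POM, 67.0 in POM, 13.1 in the ATRA-labelled library and 38.3 in DMSO, on 210, 467, 22 and 291 summit reads. On the fold, POM was the highest and the ATRA-labelled library the lowest at both regions. On reads scaled to the DMSO depth, the region over the outer start had 178 in ATRA+POM, 352 in POM, 205 in the ATRA-labelled library and 198 in DMSO, so that ATRA+POM was the lowest there. A flank region had a fold of 5.19 in POM and 3.36 in DMSO, and another, chr2:213165965-213166278, was a DMSO peak of 5.96-fold.

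IKZF4, the gene of Eos, lies at chr12:56007504-56038435 among RAB5B, SUOX and RPS26, and most of its peaks belonged to the surroundings. Of its 8 regions, 2 lay in the body, and 28.9 kb of the body, 93.3%, held no peak. The region at the far end of the gene from its start, chr12:56036769-56038766, had a fold of 5.84 in ATRA+POM, 37.6 in POM and 10.8 in DMSO, and no peak in the ATRA-labelled list. Its summit reads were 84 in ATRA+POM, 318 in POM and 75 in DMSO, or 93.3, 344 and 75 at the DMSO depth. POM thus stood above the other lists on both measures, whereas ATRA+POM was below DMSO on the fold and above it on the scaled reads. The 318 POM reads correspond to 45.3 at the depth of the ATRA-labelled library, whose 10th percentile was 11 reads. Before the outer start, chr12:56006959-56007325 had a fold of 6.06 in ATRA+POM, 21.6 in POM, 8.14 in the ATRA-labelled library and 13.7 in DMSO. At RPS26, a ribosomal protein gene, chr12:56041216-56043475 had a fold of 23.8 in ATRA+POM, 75.5 in POM, 27.7 in the ATRA-labelled library and 36.5 in DMSO. At SUOX, which encodes sulfite oxidase, chr12:56001279-56002331 had a fold of 9.42 in ATRA+POM and 11.7 in POM and no peak in the other lists. It was the sole member region called in both lists with pomalidomide and in no other (2.56% of member regions, against 9.60% of all regions). On the fold POM was the highest at the 3 regions of IKZF4 that every list called, including chr12:55996663-55997074 between RAB5B and SUOX, with 22.5 in ATRA+POM, 24.6 in POM, 10.9 in the ATRA-labelled library and 14.3 in DMSO.

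IKZF5, the gene of Pegasus, lies at chr10:122990806-123008795 between PSTK and ACADSB and its strongest peak had a lower fold than those of IKZF1 and IKZF3 in each list. The region with the highest DMSO fold in its window, chr10:122979954-122980666 at PSTK, a selenocysteine synthesis kinase, had a fold of 14.0 in POM, 8.19 in the ATRA-labelled library and 32.7 in DMSO, on 47, 10 and 115 reads. No peak was called there in ATRA+POM. In the body, chr10:122991035-122992183 had a fold of 4.16 in ATRA+POM, 9.18 in POM, 12.05 in the ATRA-labelled library and 17.0 in DMSO. This body region also lies within 1000 bp of PSTK. The PSTK region named below is chr10:122979954-122980666. On the fold both regions were highest in DMSO. At the end that holds its starts, next to ACADSB, chr10:123007996-123008788 had a fold of 6.27 in ATRA+POM, 14.6 in POM, 6.30 in the ATRA-labelled library and 12.7 in DMSO. At chr10:122998147-122998924 the folds lay close together, at 6.92 in ATRA+POM, 8.85 in POM, 10.1 in the ATRA-labelled library and 9.81 in DMSO. IKZF5 held 3 peaks in ATRA+POM, 7 in POM, 5 in the ATRA-labelled list and 7 in DMSO, and ATRA+POM was thus the lowest.

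**Figure D3:**
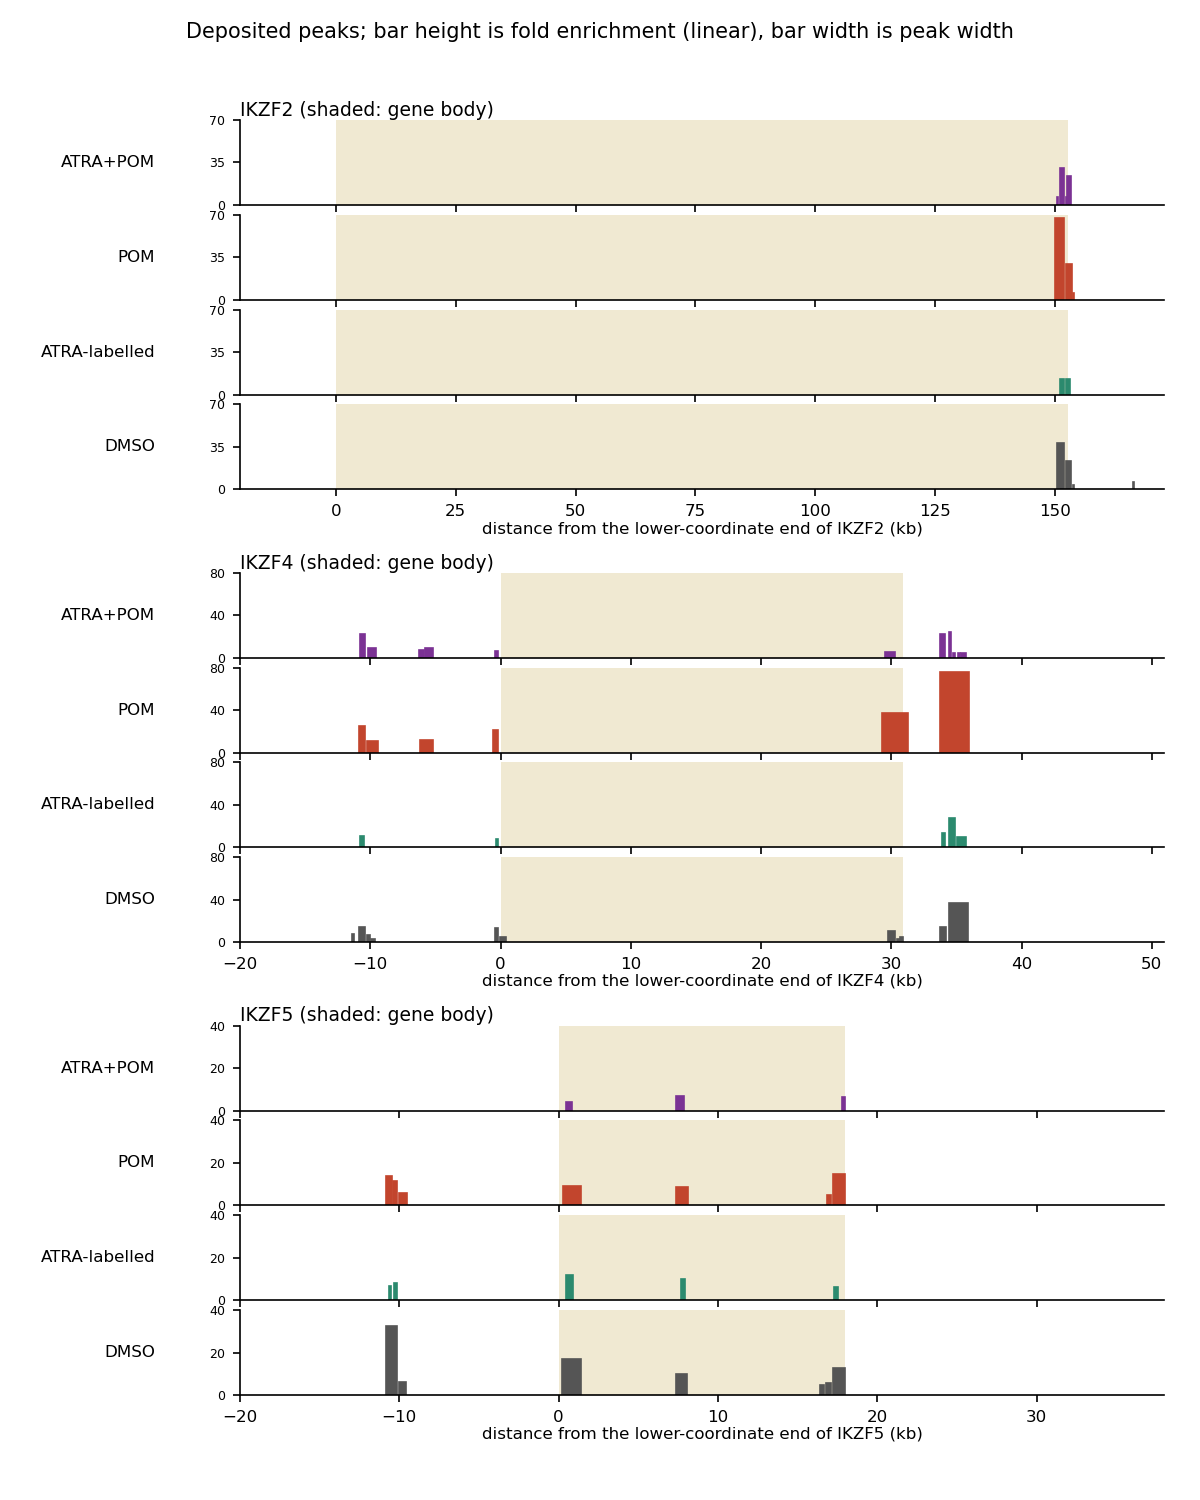
Deposited peaks along IKZF2, IKZF4 and IKZF5 in each list, with distance from the lower-coordinate end of the gene in kb on the horizontal axis and fold enrichment (linear) on the vertical axis; shading marks the gene body. The peaks of IKZF2 and IKZF4 cluster at the ends of the genes, and those of IKZF5 are low in ATRA+POM.

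The total length covered by peaks separated the members more than their number. At IKZF3, peaks covered 18.4 kb in ATRA+POM, 23.8 kb in POM, 12.5 kb in the ATRA-labelled list and 20.4 kb in DMSO. Within each list this placed IKZF3 114th, 93rd, 207th and 154th of 19974 genes. At IKZF1 they covered 9.88 kb in ATRA+POM, 10.8 kb in POM, 9.96 kb in the ATRA-labelled list and 12.4 kb in DMSO, for ranks of 467, 732, 341 and 557. These ranks are not scaled to the window, which was 147 kb at IKZF3, 70.9 kb at IKZF4 and 58.0 kb at IKZF5. Per 100 kb, IKZF3 held 10.9 regions, IKZF4 11.3 and IKZF5 12.1. As a share of its window, IKZF3 was the most covered member in each list, at 13.9% in DMSO. By its strongest peak IKZF1 ranked 212th in ATRA+POM, 195th in POM, 368th in the ATRA-labelled list and 230th in DMSO. IKZF5 ranked 11935th, 11232nd, 9401st and 5658th on the same measure. Peaks of 3 kb or more made up 2 of the family's peaks in ATRA+POM, 5 in POM, 3 in the ATRA-labelled list and 2 in DMSO. Among all peaks they made up 1.78% in ATRA+POM, 3.07% in POM, 1.66% in the ATRA-labelled list and 3.66% in DMSO.

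**Figure D4:**
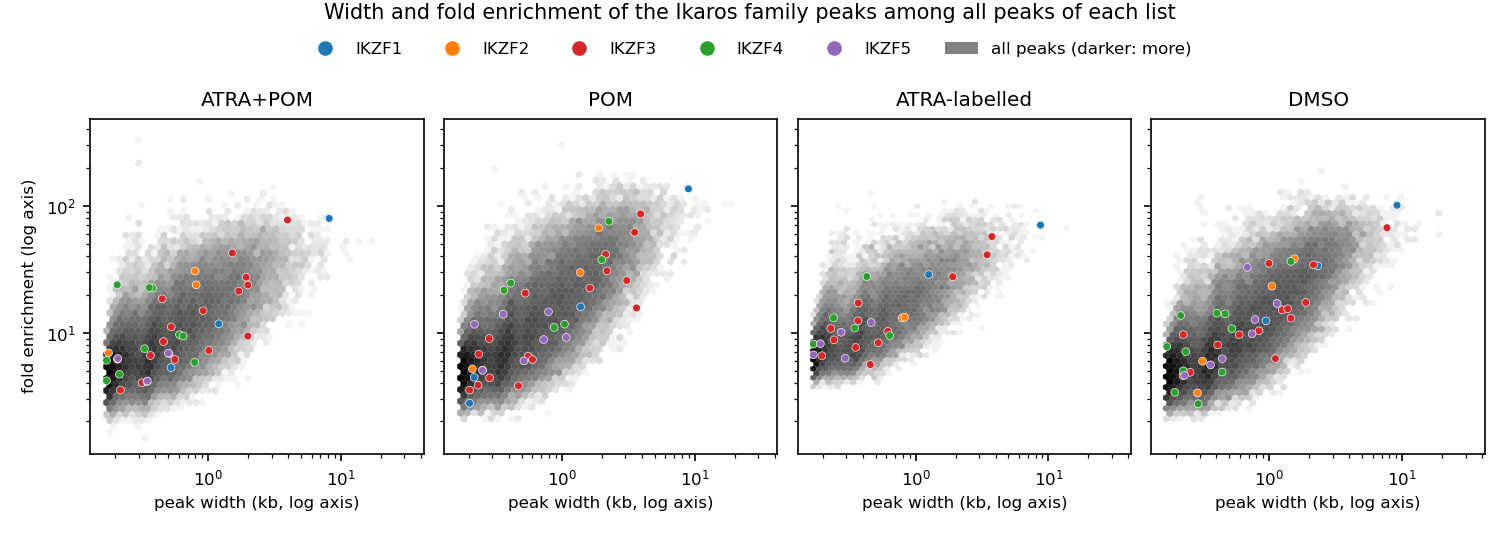
Width in kb (log axis) against fold enrichment (log axis) of every peak in each list, with all peaks as grey density and the peaks of the 5 genes as coloured points. The strongest peak of IKZF1 lies at the wide, high edge in every list, and most other points lie inside the bulk.

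POM was set against DMSO to see how the loci differ with pomalidomide alone. The comparisons with DMSO all use the same DMSO list and are not independent. Of the 37 POM peaks, 6 (16.2%, 95% Wilson interval 7.65 to 31.1, counting error only) had no DMSO counterpart, against 30.2% of all POM peaks. In the other direction, 4 of 39 DMSO peaks (10.3%, 4.06 to 23.6) had no POM counterpart, against 29.3% of all DMSO peaks. With the stronger 50% of each list this second gap was smaller, at 5 of 23 DMSO peaks (21.7%) against 25% of all. For POM peaks without a DMSO counterpart it was then 3 of 20, against 27.4% of all. Both full lists called 28 of the member regions. Their log2 ratio of fold, POM over DMSO, had a median of 0.36, beside 0.08 over all 32829 shared regions. Ratios more than 1 log2 unit from that median of all regions were counted, and are given here as the difference from it. Above it lay 1 member, the far end of IKZF4 at 1.72, where 13.2% of all regions lay above. Below it lay 4 members, where 11.8% of all regions lay below. These were the 2 inner regions of IKZF1 at -1.56 and -1.15, chr17:39793846-39794438 in IKZF3 at -1.53 and the PSTK region of IKZF5 at -1.31. By number of peaks, IKZF1 and IKZF3 had more in POM, IKZF2 and IKZF4 fewer, and IKZF5 the same number. Over all genes 29.0% had more and 26.1% fewer. The length covered by peaks was ordered differently. In POM and DMSO it was 6.96 and 4.61 kb at IKZF4, 3.475 and 3.188 kb at IKZF2, and 10.8 and 12.4 kb at IKZF1. At IKZF3 it was 23.8 and 20.4 kb, and at IKZF5 3.95 and 4.38 kb. Fewer peaks thus did not mean less coverage.

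The ATRA-labelled library was set against DMSO, under the difference in depth given above. Its label names retinoic acid alone, but given its values above the peaks do not settle whether it is a separate library of retinoic acid-treated cells. None of its 26 member peaks lacked a DMSO counterpart (0%, 95% Wilson interval 0 to 12.9), against 0.327% of all its peaks. Of the 39 DMSO peaks, 18 (46.2%, 31.6 to 61.4) had no counterpart in it, against 48.7% of all. When the summit reads of those 18 were scaled to its depth, 2 came out above its 10th percentile of 11 reads. Of 19 regions called in both, the median log2 ratio of fold was -0.50, beside -0.42 over 25095 regions. On summit reads scaled to depth it turned to 0.25, beside 0.24 over all regions. No member lay more than 1 above the median (1.36% of all regions) and 2 lay below (3.02% of all). These were chr2:213149718-213151607 of IKZF2 at -1.13 and the PSTK region of IKZF5 at -1.58 from the median, which rest on 22 and 10 reads in the ATRA-labelled library.

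ATRA+POM was set against DMSO for the combination. Of its 37 member peaks, 3 (8.11%, 95% Wilson interval 2.80 to 21.3) had no DMSO counterpart, against 24.1% of all. Of the 39 DMSO peaks, 12 (30.8%, 18.6 to 46.4) had no counterpart in ATRA+POM, against 44.1% of all. At the depth of ATRA+POM, 10 of those 12 had reads above its 10th percentile. With the stronger 50% of each list, 5 of 21 ATRA+POM peaks (23.8%) had no DMSO counterpart, against 25.8% of all. For DMSO peaks without an ATRA+POM counterpart it was 9 of 23 (39.1%), against 41.3% of all. Over 22 shared regions the median log2 ratio was -0.49, beside -0.57 over 26253. More than 1 above the median were 5 members, 3 at IKZF3 and 2 at the RAB5B and SUOX side of IKZF4, against 16.1% of all regions. The largest of these, at the lower-coordinate end of IKZF3, lay 1.70 above. The 1 member below was chr10:122991035-122992183 in the body of IKZF5 at -1.47, against 12.8% of all regions. By number of peaks, IKZF3 had more in ATRA+POM, IKZF5 fewer, and the other 3 genes the same number, against 24.0% with more and 36.2% with fewer over all genes. The length covered by peaks was lower in ATRA+POM than in DMSO at every member, at IKZF3 18.4 against 20.4 kb. The whole lists covered 30.8 Mb in ATRA+POM and 43.6 Mb in DMSO.

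ATRA+POM was set against POM for retinoic acid added to pomalidomide. Of 37 ATRA+POM peaks, 1 (2.70%, 95% Wilson interval 0.479 to 13.8) had no POM counterpart, against 10.5% of all. Of 37 POM peaks, 13 (35.1%, 21.8 to 51.2) had none in ATRA+POM, against 36.2% of all. With the stronger 50% of each list this second gap was wider, at 3 of 20 POM peaks against 32.1% of all. For ATRA+POM peaks without a POM counterpart it was then 0 of 21, against 10.1% of all. Over 23 shared regions of the full lists the median log2 ratio was -0.59, beside -0.66 over 31667. There were 2 members more than 1 above the median, both at IKZF3 (10.2% of all regions), and 4 below (8.23% of all). The 4 below were 3 regions of IKZF4 and 1 of IKZF3, led by the far end of IKZF4 at -2.03.

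ATRA+POM was set against the ATRA-labelled library, and by the labels these differ in pomalidomide. The same doubt about the ATRA-labelled library holds here. Of 37 ATRA+POM peaks, 12 (32.4%, 95% Wilson interval 19.6 to 48.5) had no ATRA-labelled counterpart, against 43.8% of all. Of 26 ATRA-labelled peaks, 5 (19.2%, 8.51 to 37.9) had none in ATRA+POM, against 23.3% of all. Over 17 shared regions the median log2 ratio of fold was -0.01, beside -0.25 over 19746. It changed sign, to between 0.18 and 0.30, under 4 of the other settings, and was -0.92 on scaled reads, beside -1.11 over all regions. The 3 members above the median by more than 1 (12.8% of all regions) were both start regions of IKZF2 and the RAB5B and SUOX region of IKZF4. The 3 below (12.3% of all) were the inner region of IKZF1, a region of IKZF3 and the body region of IKZF5.

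**Figure D5:**
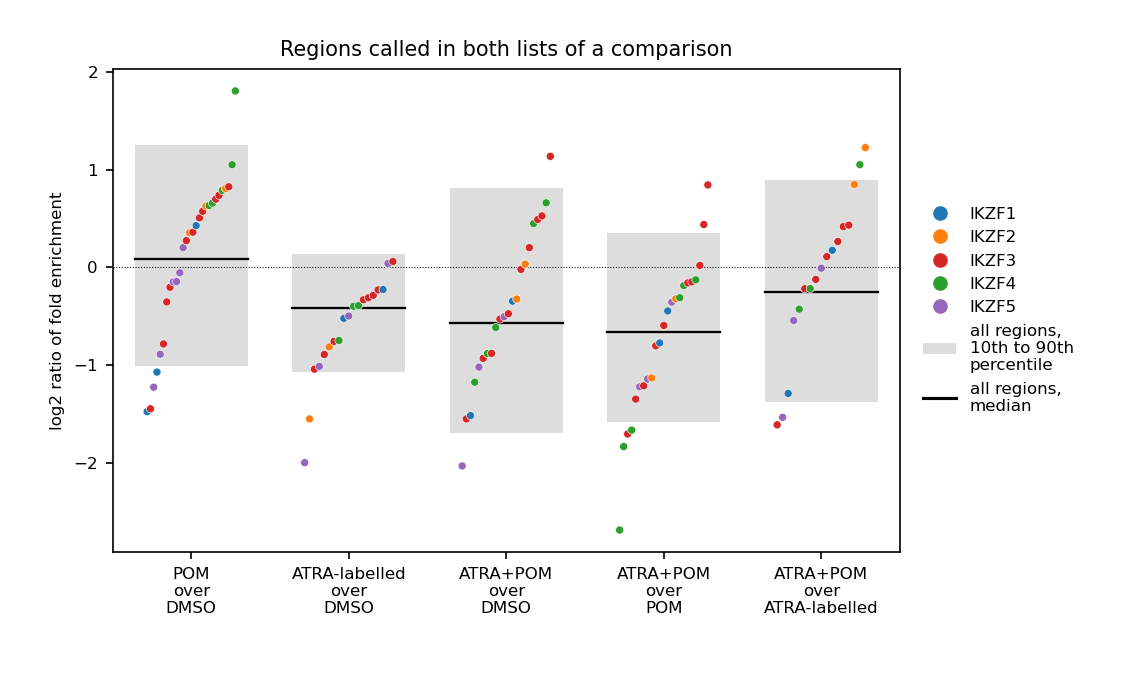
Log2 ratio of fold enrichment (vertical axis) at each member region called in both lists of a comparison, 1 point per region coloured by gene and sorted within a comparison; the black line is the median over all regions and the grey box spans their 10th to 90th percentile. Most points lie inside the box in each of the 5 comparisons, and the far end of IKZF4 is the highest point in POM over DMSO and the lowest in ATRA+POM over POM.

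Other genes tied to the family were counted in the same windows in POM and DMSO, where the median difference over all genes was 0 peaks. Over all genes 29.0% had more peaks in POM and 26.1% fewer, shares that include genes with no peak. Of 5 genes of the cereblon ligase, 1 had more peaks in POM, 3 fewer and 1 the same. The ligase scaffold CUL4A had 4 peaks in POM and 5 in DMSO, the RING protein gene RBX1 2 in POM and 4 in DMSO, CUL4B 3 in POM and 4 in DMSO, and DDB1 4 in POM and 3 in DMSO. Of 12 other drug-dependent cereblon substrates, 2 had more and 8 fewer, with a median difference of -1. Among them ZBTB16, encoding the zinc finger protein PLZF, had 5 peaks in POM and 9 in DMSO, ZFP91 had 4 in POM and 8 in DMSO, RAB28 4 in POM and 6 in DMSO, and ARID2 5 in POM and 6 in DMSO. Of 13 genes of the NuRD complex, a chromatin remodeller that Ikaros recruits, 7 had more and 2 fewer, with a median difference of 1. MBD3 had 7 peaks in POM and 4 in DMSO, RBBP7 6 in POM and 3 in DMSO, the remodelling ATPase CHD4 9 in POM and 7 in DMSO, and GATAD2A 7 in POM and 5 in DMSO. The 2 with fewer, chosen after their values were seen, were MTA1 with 6 in POM and 8 in DMSO and MBD2 with 8 in POM and 10 in DMSO. Of 10 genes known to respond to Ikaros or Aiolos, 5 had more and 2 fewer. IRF4, a plasma cell transcription factor, had 4 peaks in POM and 8 in DMSO, MYC 3 in POM and 6 in DMSO, BST2 4 in POM and 2 in DMSO, and CD38 5 in POM and 4 in DMSO. The mean number of POM peaks per gene was 3.21 over all genes and 3.0 for the ligase. It was 5.17 for the other substrates, 6.23 for NuRD and 2.9 for the Ikaros or Aiolos genes. The counts of these lists and the shares over all genes are thus not like for like, and no difference was tested.

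The genes whose strongest fold over the 4 lists was most like that of each member were ranked by the Euclidean distance of log2(fold + 1), among the 1611 to 12309 protein-coding genes with at least 50% as many peaks as the member. For IKZF1 these were DUSP22 (distance 0.21) and SAMD12 (0.25), for IKZF3 LRRC4C and NSRP1 (0.13 each), and for IKZF2 NPM1 (0.14) and CMBL (0.36). For IKZF4, whose strongest peak is the one at RPS26, they were TIA1 (0.16) and DEPP1 (0.19), and for IKZF5 AP4E1 (0.27) and AXIN2 (0.32). DUSP22 peaked at 77.2-fold in ATRA+POM, 134 in POM, 78.6 in the ATRA-labelled library and 91.6 in DMSO.

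The 20 kb limit of the window mattered at IKZF1. Just outside its lower-coordinate edge lay a DMSO peak of 23.4-fold, 0.564 kb away, a POM peak of 15.5-fold, an ATRA-labelled peak of 14.1-fold and an ATRA+POM peak of 4.10-fold, 0.390 kb away. The members nearest to an edge from inside were the POM peaks on the GRB7 side of IKZF3, of 5.09-fold and 6.78-fold, at 1.203 and 1.554 kb.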

How the data were processed

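OPM-2 chromatin was immunoprecipitated after 72 h with ATRA+POM, POM, ATRA or DMSO. The labelled treatment and kind of library gave the groups. Each treatment has 1 ChIP library and 1 input, and the inputs were not analysed here. Per the labels' protocols, chromatin was sheared to 200 to 500 bp. Coordinates are hg38, per the submitters' processing notes. Not given in the sources used here are the antibody, aligner and peak caller.

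The authors deposited 1 peak list per ChIP library, with no pooling. In the deposited score, −log10 p is multiplied by 10 and truncated. The deposited fold is taken as the ratio of summit to local background, and the deposited −log10 p and −log10 q belong to each peak. The source of that background, ChIP or input, is not given in the sources used here. Depth was not stated, so summit reads were recovered from fold and p, assuming a Poisson caller that adds 1 to reads and background. They came out whole within 0.02 for 100.0% of peaks in each list. Relative depth is a ratio of the lowest recurrent background (20 or more peaks) to the smallest peak width. The ATRA-labelled library, at 0.132 of DMSO, had the fewest summit reads. Intervals are 95% Wilson intervals and cover counting error only.

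A counterpart overlaps by at least 1 bp, and peaks of the 4 lists sharing a base were merged. Ratios use the strongest peak of each list in a region. Gene positions for 19974 protein-coding genes and promoters came from RefSeq tables, which list a promoter for 4 of the 5 genes. Overlaps and merging equalled those of bedtools 2.31.1, and read recovery returned 100.0% of 3000 simulated summits. Those summits were made with the same assumed formula, so this checks the calculation and not the assumption about the caller. Python 3.11.15, pandas 2.3.3 and scipy 1.17.1 were used.

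All 5 members and their neighbouring genes were named by rule. From each gene list up to 4 members could be named, by the largest difference in peaks between POM and DMSO, and per member the 2 genes most like it. The members and lists were chosen with earlier results of these data known. Alternatives were stricter peak thresholds, other windows and overlaps, merging nearby peaks and leaving out the ATRA-labelled list. Protein sequences were not used here, and some marker genes and 1 promoter are not reported here.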

Additional observations from a re-analysis of the deposited data

How the results depend on the processing

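No paired analysis was possible because each treatment has 1 library, and no library could be left out within a treatment. Peaks in lists, without a counterpart, regions and ratios kept their value within 1.5 times, or ratios their direction and size, in 11 of 24, 34 of 70, 11 of 21 and 29 of 35 recomputed values. With the stronger 50% of each list, the family held 21 ATRA+POM, 20 POM, 14 ATRA-labelled and 23 DMSO peaks, in 24 regions, of which 10 were in every list and 4 in 1 list. At a fold of at least 10 it held 15 ATRA+POM, 21 POM, 16 ATRA-labelled and 21 DMSO peaks, in 23 regions, with 10 in every list and 4 in 1 list. In gene bodies alone it held 23 ATRA+POM, 17 ATRA-labelled and 25 DMSO peaks, with 6 regions in 1 list. Counting peaks within 500 bp once gave 21 in ATRA+POM and 24 in DMSO.

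Peaks without a counterpart moved as follows. A count can fall because a setting keeps fewer peaks, and among these settings shares over all peaks are given for the stronger 50% alone. With the stronger 50%, 3 of 20 POM peaks had none in DMSO (27.4% of all), and 10 of 23 DMSO peaks none in the ATRA-labelled list (41% of all). Of 21 ATRA+POM peaks, 5 had none in DMSO (25.8% of all) and 0 none in POM (10.1% of all). In ATRA+POM, 3 of 20 POM peaks had none (32.1% of all) and 2 of 14 ATRA-labelled peaks had none (24.6% of all). At a fold of at least 10 these counts were 3, 7, 1, 0 and 8 for the first 5, with 1 ATRA-labelled peak without DMSO and 2 ATRA+POM peaks without the ATRA-labelled list. In gene bodies alone they were 3 for POM without DMSO, 2 for DMSO without POM, 10 for DMSO without ATRA-labelled, 1 for ATRA+POM without DMSO, 7 for DMSO without ATRA+POM, 7 for POM without ATRA+POM and 3 for ATRA-labelled without ATRA+POM. With 5 kb flanks they were 3 for POM without DMSO, 2 for DMSO without POM, 1 for ATRA+POM without DMSO, 8 for POM without ATRA+POM and 3 for ATRA-labelled without ATRA+POM, with 6 regions in 1 list. With 36742 strongest peaks per list they were 3 for POM without DMSO, 8 for DMSO without ATRA-labelled, 7 for POM without ATRA+POM and 9 for ATRA-labelled without ATRA+POM, with 5 regions in 1 list. Requiring 50% overlap gave 10 for POM without DMSO, 7 for DMSO without POM and 5 for ATRA+POM without DMSO. Allowing 500 bp between peaks gave 1 for DMSO without POM, 7 for DMSO without ATRA+POM, 0 for ATRA+POM without POM and 3 for ATRA-labelled without ATRA+POM, and 3 regions in 1 list when merged so.

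The median ratio of ATRA+POM over the ATRA-labelled library, -0.01, turned to 0.22 with the stronger 50% and at a fold of at least 10, to 0.18 with equal numbers and to 0.30 with summits within 50 bp. On summit reads scaled to depth, chosen after seeing the data, it was -0.92 (all regions -1.11), and the ratio of the ATRA-labelled library over DMSO was 0.25 (all regions 0.24) in place of -0.50. The fold and the scaled reads thus order these libraries differently, and the cause was not tested. Summit reads in the ATRA-labelled list, with a median of 23, limit what it can show.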
